A study of Mus musculus with 8 samples.

Results

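The set described here consists of 10 genes that encode integrin chains carried by leukocytes, taken as a list of names: *Itgax*, *Itgam*, *Itgal*, *Itgb2*, *Itgae*, *Itga4*, *Itgb1*, *Itgb7*, *Itgav* and *Itgb5*. They were read out of 47937 gene IDs in the count tables of bone marrow-derived dendritic cells (BMDCs), the cells that grow from mouse bone marrow in medium with GM-CSF. Cells of 2 genotypes were sequenced with and without LPS, a cell wall component of bacteria that matures dendritic cells, and each of the 4 groups has 2 libraries. WT cells came from Cre-negative animals. The 3xGrk−/− cells (Grk 3xKO in the sample labels) came from animals in which floxed *Grk2* and *Grk6* are deleted by Vav-iCre, a recombinase active from early blood cell precursors on, beside a germline deletion of *Grk3*. The methods place donors on a C57BL6/J background at over 8 weeks of age, give 20 ng/ml GM-CSF for 8 to 9 days of culture, and give 20 ng/ml LPS for 24 h to the stimulated groups. GRKs are kinases that phosphorylate activated G protein-coupled receptors.

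Integrins are adhesion receptors made of an α and a β chain, and a chain reaches the cell surface only with a partner. The β2 chain (*Itgb2*, CD18) pairs with αL (*Itgal*, LFA-1), αM (*Itgam*, CD11b, complement receptor 3), αX (*Itgax*, CD11c) and αD (*Itgad*), and binds ICAMs, complement fragments and fibrinogen. The α4 chain (*Itga4*) pairs with β1 (*Itgb1*) or β7 (*Itgb7*) to bind VCAM-1, fibronectin or MAdCAM-1, αE (*Itgae*, CD103) pairs with β7 to bind E-cadherin, and αV (*Itgav*) pairs with β1, β3, β5 (*Itgb5*), β6 or β8 on vitronectin and the latent form of TGF-β. CD11c and CD103 are classic surface markers of dendritic cells.

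Levels are given as CPM (reads on a gene scaled to a common library size) after TMM scaling over all 8 libraries, in the order of replicates 1 and 2. Between 4713305 and 6933358 reads per library lay on genes, and the mean chi-square per gene between the 2 libraries of a group ran from 1.59 to 9.02, so that none was a copy of another. Whether the libraries come from separate cultures is not stated (the methods speak of technical triplicates), and the p-values then measure only the spread between these libraries. The transcripts of the targeted kinases were still counted in 3xGrk−/− cells at lower levels than in WT, with log2 differences of −1.11 for *Grk2*, −0.36 for *Grk3* and −1.19 for *Grk6* without LPS. Of the 10 dendritic cell markers checked, such as *Flt3*, *Zbtb46* and *H2-Ab1*, each was detected in all groups. In bulk RNA, fewer cells of a type and less RNA per cell cannot be told apart.

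The genes of 3 β2-binding α chains lie next to each other on the plus strand of chromosome 7 (GRCm38). *Itgam* (chr7:128062640-128118491) is followed after 11.1 kb by *Itgax* (chr7:128129547-128150657), and *Itgax* after 3.7 kb by *Itgad*, with 0 protein-coding genes in either gap. *Itgal* (chr7:127296260-127335138) lies 727.5 kb before *Itgam*, with 38 protein-coding genes in between. The other members are spread over the genome, with *Itga4* (chr2:79255426-79333123) and *Itgav* (chr2:83724397-83806916) on one chromosome, and *Itgb2* (chr10:77530252-77565708), *Itgae* (chr11:73090583-73147446), *Itgb1* (chr8:128685654-128733200), *Itgb5* (chr16:33829665-33949338) and *Itgb7* (chr15:102215995-102231944, the only one on the minus strand) on others. The neighbours *Itgam* and *Itgax* were both higher in 3xGrk−/− cells, and the 250 bases before their RefSeq starts are shown for that reason (GRCm38.p6, plus strand, chr7:128129300-128129549 for *Itgax* and chr7:128062390-128062639 for *Itgam*). Capitals mark matches to TGANTCA (the AP-1 motif) and to GAGGAA (the core of the PU.1 motif), read on both strands.

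Itgax: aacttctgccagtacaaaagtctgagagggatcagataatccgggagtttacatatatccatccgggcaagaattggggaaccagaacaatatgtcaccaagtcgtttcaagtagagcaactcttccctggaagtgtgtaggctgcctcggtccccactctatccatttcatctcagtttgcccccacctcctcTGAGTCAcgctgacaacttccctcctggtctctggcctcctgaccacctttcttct

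Itgam: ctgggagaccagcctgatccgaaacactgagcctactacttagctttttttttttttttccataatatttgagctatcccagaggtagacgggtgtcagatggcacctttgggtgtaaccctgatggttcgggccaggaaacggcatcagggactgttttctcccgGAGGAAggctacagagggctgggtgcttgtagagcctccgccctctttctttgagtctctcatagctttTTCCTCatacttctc

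The *Itgax* stretch held TGANTCA 56 bases before the start and no GAGGAA. In *Itgam*, GAGGAA stood 84 bases before the start and, on the opposite strand, 15 bases before it. Over windows that also take in 50 bases after the start, GAGGAA was found in 28.3% and TGANTCA in 7.81% of 32851 RefSeq promoters. The RUNX core TGTGGT was found in 16.8%, the STAT motif TTCNNNGAA in 8.30% and the NF-kB form GGGNNTTCC in 5.82% of them. TTCCTC, the reverse complement of GAGGAA, can share letters with the end of GGGNNTTCC. In these longer windows *Itgax* also held TGTGGT 13 bases after the start, and *Itgam* another GAGGAA on the opposite strand. Of the 7 members in the table, *Itgb1*, *Itgb7* and *Itgav* held GAGGAA, *Itga4* held TGTGGT, *Itgb1* also held GGGNNTTCC, and *Itgb5* held none of these motifs. *Itgal*, *Itgb2* and *Itgae* were not matched.

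The first question was how the integrin transcripts differ between 3xGrk−/− and WT cells before stimulation. The β2 chain and its partner αM were higher in 3xGrk−/− cells, as were β5 and, by less, αX and β1, while αL, αE and β7 were lower and α4 and αV did not pass the test. Among 12000 genes tested by edgeR (quasi-likelihood test, p adjusted after Benjamini-Hochberg, threshold 0.05), 5 of the 10 members were higher (22.1% of all genes) and 3 were lower (22.7% of all genes). The libraries of the genotypes did not overlap for 8 of the 10 members, against 69.2% of all genes. A called difference of at least 1 in log2 size was found for 4 members, against 12% of all genes. The median log2 difference of the members was 0.087, and that of all genes −0.002. Between 2 and 2 libraries, an exact two-sided permutation test of one gene cannot go below p = 0.333, so that the adjusted p-values draw on the spread edgeR models over the whole table.

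**Figure D1:**
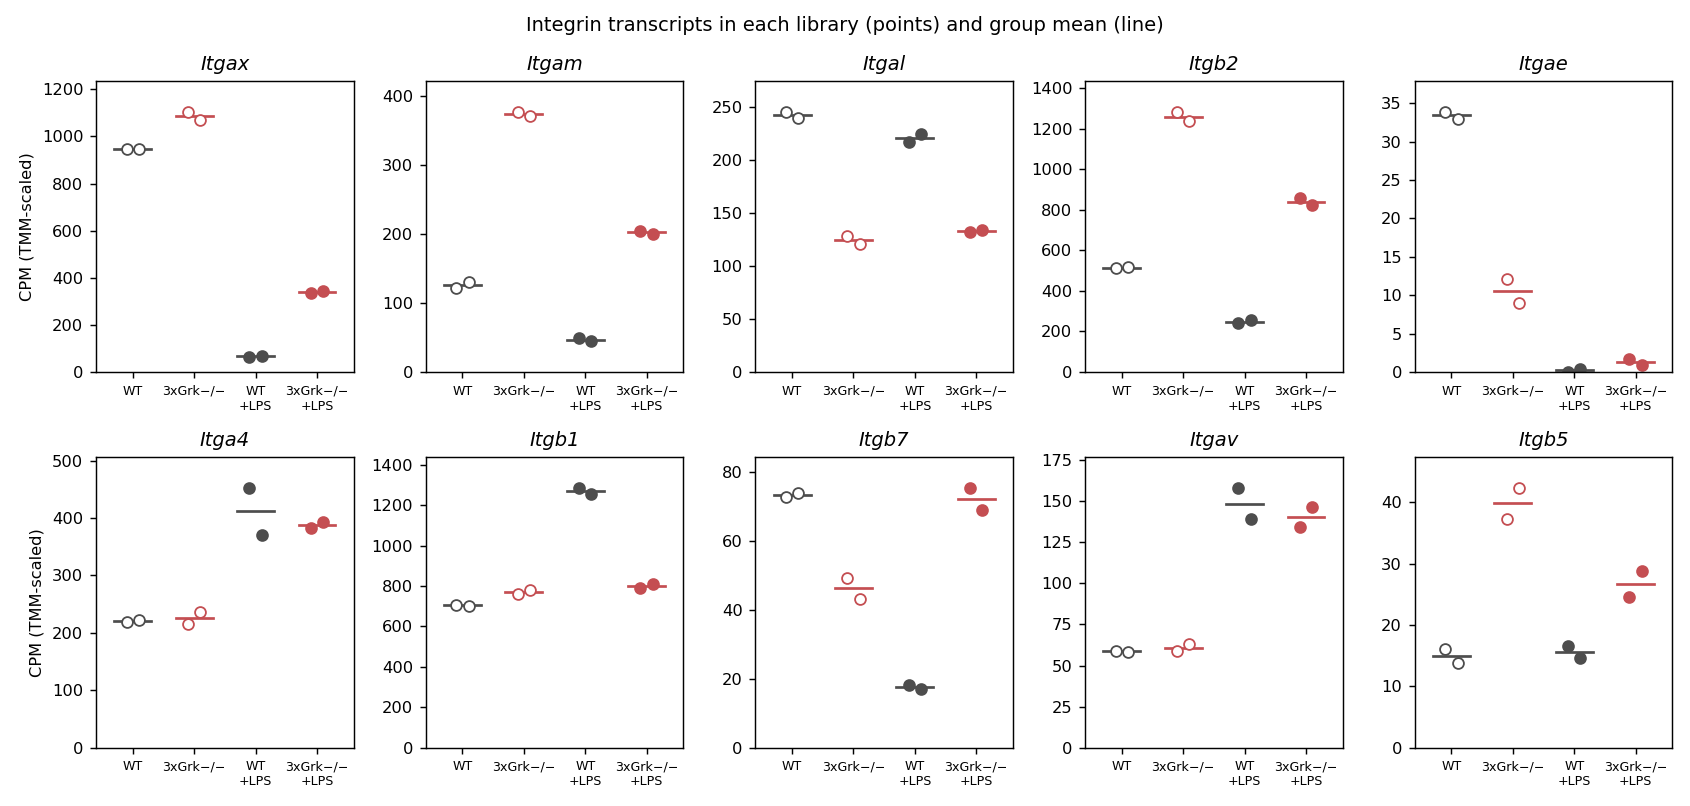
Each panel plots the TMM-scaled CPM of 1 integrin gene (y axis from 0) in the 4 groups (x axis). Circles are libraries, open without and filled with LPS, grey for WT and red for 3xGrk−/−, and lines are means of 2 libraries. *Itgam* and *Itgb2* are higher in 3xGrk−/− cells in both conditions, *Itgax* falls in both genotypes with LPS, and *Itgb7* falls in WT and rises in 3xGrk−/− cells with LPS.

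*Itgb2*, the shared β chain, had 511.6 and 518.8 CPM in WT and 1281 and 1236 CPM in 3xGrk−/− libraries. Its log2 difference was 1.28 (SE 0.0354, adjusted p = 1.33e-277), with no overlap between the genotypes. *Itgam* had 122.2 and 130.3 CPM in WT against 376.4 and 371.5 CPM in 3xGrk−/− libraries, a log2 difference of 1.56 (SE 0.0486, adjusted p = 5.84e-219). The αX gene *Itgax* was already high in WT, with 947.0 and 946.3 CPM, and reached 1103 and 1069 CPM in 3xGrk−/− libraries. That is a log2 difference of 0.19 (SE 0.0336, adjusted p = 5.20e-08), and 57.5% of all genes tested differed by as much or more in either direction. *Itgal*, the α chain of LFA-1, went the other way, from 244.9 and 239.5 CPM in WT to 128.1 and 120.3 CPM in 3xGrk−/− libraries. Its log2 difference was −0.96 (SE 0.0514, adjusted p = 2.84e-76), again without overlap. The β2 chain and αL, which make up LFA-1, thus differed in opposite directions.

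Both chains of the E-cadherin receptor were lower in 3xGrk−/− cells. *Itgae* had 33.82 and 32.97 CPM in WT and 12.05 and 9.028 CPM in 3xGrk−/− libraries, a log2 difference of −1.65 (SE 0.142, adjusted p = 6.04e-30). For *Itgb7* the values were 72.76 and 73.97 CPM in WT against 49.09 and 43.23 CPM in 3xGrk−/− libraries, with a log2 difference of −0.67 (SE 0.0833, adjusted p = 1.03e-14). The libraries of the genotypes were apart for both genes. *Itga4*, the other α partner of β7, had 218.3 and 223.0 CPM in WT and 215.3 and 235.8 CPM in 3xGrk−/− libraries, which overlapped (log2 difference 0.02, SE 0.0475, adjusted p = 0.726). The β1 gene *Itgb1* was higher by 0.13 on the log2 scale (SE 0.0360, adjusted p = 0.00165), with 706.3 and 702.9 CPM in WT and 760.2 and 782.3 CPM in 3xGrk−/− libraries. This small difference lost its call without replicate 2 of unstimulated 3xGrk−/− (0.10, adjusted p = 0.0554) and with library size in place of TMM scaling (0.04, adjusted p = 0.389).

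Among the αV chains, *Itgav* itself overlapped between the genotypes, at 59.08 and 58.05 CPM in WT and 58.57 and 63.02 CPM in 3xGrk−/− libraries (log2 difference 0.05, SE 0.0825, adjusted p = 0.676). Its partner *Itgb5* rose from 16.15 and 13.81 CPM in WT to 37.34 and 42.36 CPM in 3xGrk−/− libraries, a log2 difference of 1.42 (SE 0.127, adjusted p = 1.08e-27). With library size in place of TMM scaling, the sign of the differences of *Itga4* and *Itgav*, which did not pass the test, turned to −0.06 and −0.04.

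The same comparison was made after LPS, where *Itgae* was left out by the filter on low counts. Of the 9 members tested, 5 were higher in 3xGrk−/− cells (24.7% of all 11830 genes tested) and 2 were lower (24% of all genes). The genotypes did not overlap for 7 of the 9, against 72.6% of all genes, and 4 had a called log2 difference of at least 1 in size, against 16.8% of all genes. The median was 0.768 over the members and −0.007 over all genes. *Itgax*, *Itgam*, *Itgb2* and *Itgb7* were the members with differences over 1, all of them higher in 3xGrk−/− cells.

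*Itgax* fell to 62.63 and 70.07 CPM in LPS-stimulated WT and to 336.7 and 342.7 CPM in LPS-stimulated 3xGrk−/− libraries. The log2 difference between the genotypes was 2.34 (SE 0.0727, adjusted p = 1.50e-16), which only 4.71% of all genes matched or passed in size. *Itgam* had 48.96 and 44.67 CPM in WT and 204.6 and 200.6 CPM in 3xGrk−/− libraries, a log2 difference of 2.103 (SE 0.0801, adjusted p = 4.42e-15). *Itgb2* had 241.7 and 254.7 CPM against 857.7 and 821.9 CPM, a log2 difference of 1.74 (SE 0.0605, adjusted p = 9.39e-16). In all of them every 3xGrk−/− library lay above every WT library. *Itgal* remained lower in 3xGrk−/− cells, with 132.4 and 134.3 CPM against 216.9 and 224.1 CPM in WT (log2 difference −0.74, SE 0.0668, adjusted p = 7.59e-09).

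*Itgb7* was lower in 3xGrk−/− than in WT cells without LPS and higher with it. After LPS it had 18.18 and 16.98 CPM in WT and 75.30 and 68.87 CPM in 3xGrk−/− libraries, a log2 difference of 2.02 (SE 0.113, adjusted p = 3.05e-12). *Itgb1* was lower in 3xGrk−/− cells, with 788.8 and 810.2 CPM against 1285 and 1255 CPM in WT (log2 difference −0.68, SE 0.0544, adjusted p = 1.09e-09). The 2 β partners of α4 therefore differed in opposite directions after LPS. *Itgb5* kept a higher level in 3xGrk−/− cells, with 24.55 and 28.78 CPM against 16.56 and 14.69 CPM in WT (log2 difference 0.77, SE 0.147, adjusted p = 0.000171).

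*Itga4* had 452.5 and 371.2 CPM in LPS-stimulated WT and 382.1 and 393.6 CPM in LPS-stimulated 3xGrk−/− libraries, which overlapped (log2 difference −0.10, SE 0.0754, adjusted p = 0.301). *Itgav* likewise overlapped, at 158.0 and 138.9 CPM against 134.0 and 146.1 CPM (log2 difference −0.09, SE 0.0790, adjusted p = 0.350). Both α genes depended on which WT library was used. Without replicate 2 of LPS-stimulated WT, the differences were −0.22 for *Itga4* (adjusted p = 0.00143) and −0.17 for *Itgav* (adjusted p = 0.0484), and without replicate 1 they were 0.06 and 0.01. *Itga4* also passed the threshold with library size in place of TMM scaling (−0.19, adjusted p = 0.0439).

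*Itgae* was near the floor of counting after LPS, with 0 and 3 counts in the LPS-stimulated WT and 9 and 6 counts in the LPS-stimulated 3xGrk−/− libraries, where the unstimulated groups together had 412 counts in WT and 132 in 3xGrk−/−. The scaled ratio of 3xGrk−/− to WT after LPS was 5.18, with a 95% exact interval from 1.46 to 27.9 that covers counting error only.

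**Figure D2:**
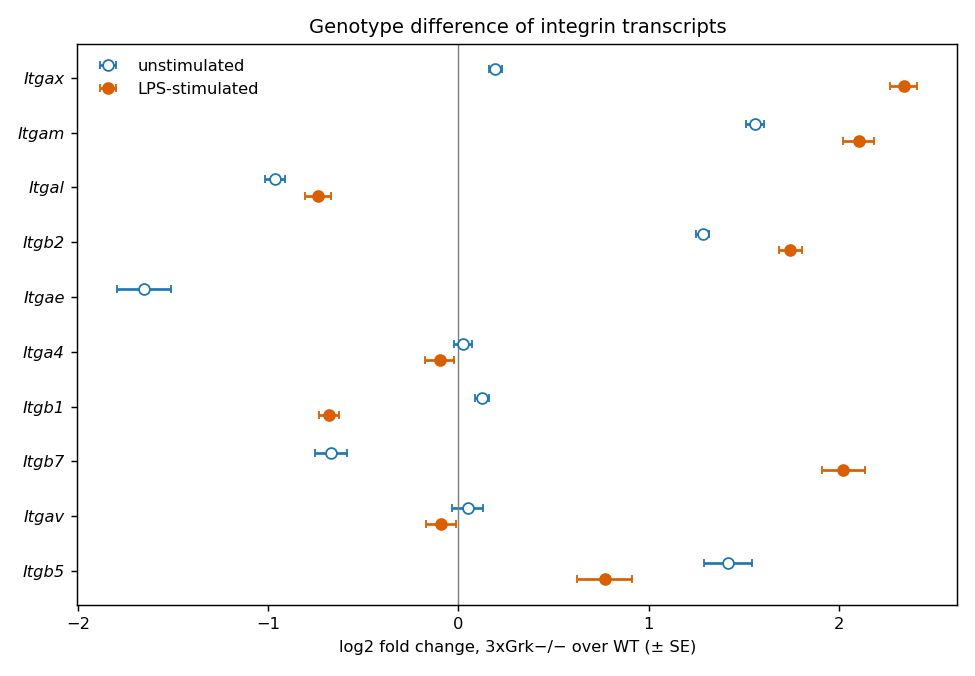
The x axis gives the log2 fold change of 3xGrk−/− over WT for each integrin gene (y axis), open blue circles without and filled orange circles with LPS, and bars are ± SE of edgeR fits of 2 against 2 libraries. *Itgax* moves from 0.19 to 2.34 and *Itgb7* from −0.67 to 2.02, while *Itga4* and *Itgav* stay near 0, and *Itgae* has no value with LPS.

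Next, the response to LPS was compared within each genotype, in one fit of all 8 libraries and 12541 genes. In WT cells, 3 of the 10 members rose (29.5% of all genes) and 5 fell (30.8% of all genes). The groups did not overlap for 9 members (78.1% of all genes), and 6 members had a called change of at least 1 in log2 size (21.5% of all genes). In 3xGrk−/− cells also 3 rose (28% of all genes) and 5 fell (27.4% of all genes), the groups did not overlap for all 10 (77.6% of all genes), and 3 changed by at least 1 (18.9% of all genes). The members' median change was −0.579 in WT and −0.252 in 3xGrk−/− cells, where that of all genes was −0.015 and −0.007. With library size in place of TMM scaling the median of all genes moved to −0.23 and −0.226, and the share of higher genes among those called went from 49% to 31.1% in WT and from 50.5% to 30.2% in 3xGrk−/− cells.

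The β2 group fell with LPS in both genotypes, apart from *Itgal*. *Itgax* had the largest fall of these, by 3.82 on the log2 scale in WT (SE 0.0595, adjusted p = 1.03e-27) and by 1.67 in 3xGrk−/− cells (SE 0.0510, adjusted p = 3.44e-21). For *Itgam* the changes were −1.42 in WT (SE 0.0707, adjusted p = 2.91e-16) and −0.88 in 3xGrk−/− cells (SE 0.0540, adjusted p = 4.30e-14), and for *Itgb2* they were −1.04 (SE 0.0498, adjusted p = 1.30e-16) and −0.58 (SE 0.0468, adjusted p = 1.79e-11). *Itgal* did not pass the test in WT (−0.12, adjusted p = 0.0610) or in 3xGrk−/− cells (0.11, adjusted p = 0.138). In WT, that call of *Itgal* came with library size only (−0.34, adjusted p = 6.37e-06), with at least 10 counts in every library (−0.15, adjusted p = 0.0160) and without replicate 2 of LPS-stimulated WT (−0.14, adjusted p = 0.0354).

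In contrast, *Itga4* and *Itgav* rose with LPS in both genotypes. The change of *Itga4* was 0.91 in WT (SE 0.0682, adjusted p = 2.70e-12) and 0.79 in 3xGrk−/− cells (SE 0.0682, adjusted p = 6.79e-11), and that of *Itgav* was 1.35 (SE 0.0790, adjusted p = 1.10e-14) and 1.21 (SE 0.0791, adjusted p = 1.51e-13). *Itgb1* rose in WT by 0.86 (SE 0.0451, adjusted p = 9.00e-16). In 3xGrk−/− cells its change of 0.06 did not pass the test (adjusted p = 0.282), and with library size in place of TMM scaling it turned to −0.16, past the threshold (adjusted p = 0.00396).

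*Itgb7* and *Itgb5* changed in ways that the genotypes did not share. *Itgb7* fell by 2.05 in WT (SE 0.107, adjusted p = 8.71e-16) and rose by 0.64 in 3xGrk−/− cells (SE 0.0898, adjusted p = 6.11e-07). *Itgb5* did not pass the test in WT (0.08, adjusted p = 0.667), and in 3xGrk−/− cells its change was −0.56 (SE 0.117, adjusted p = 0.000181). *Itgae* fell in both genotypes, and its counts after LPS are too low for a fitted fold change. As scaled ratios of unstimulated to LPS-stimulated cells, it was 134.3-fold higher before LPS in WT (95% exact counting interval 45.7 to 654) and 8.29-fold higher in 3xGrk−/− cells (4.85 to 15.2).

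**Figure D3:**
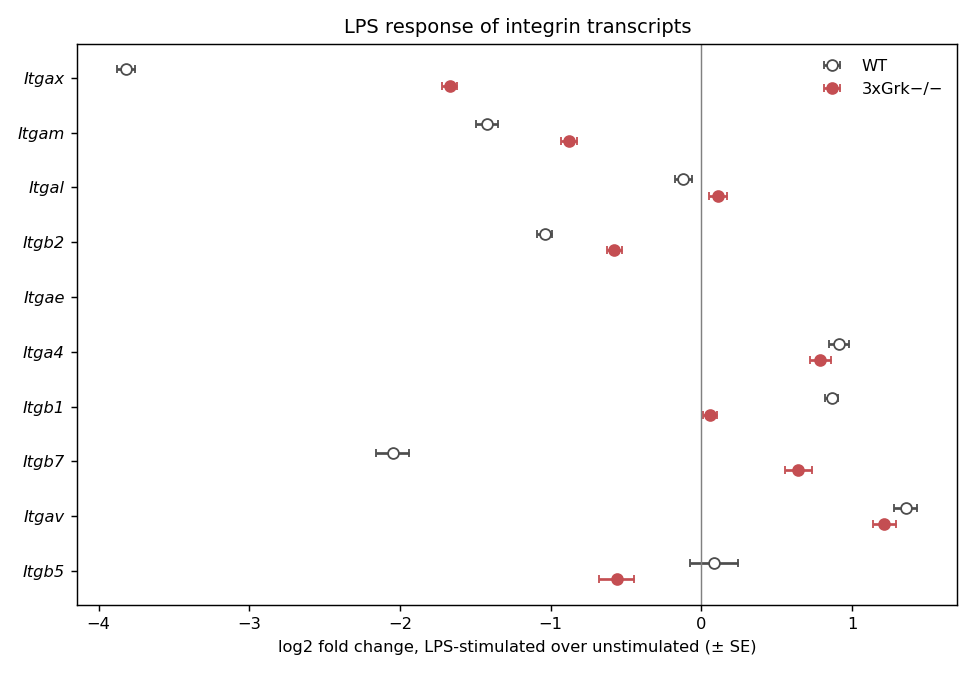
The x axis gives the log2 fold change of LPS-stimulated over unstimulated cells for each integrin gene (y axis), open grey circles for WT and filled red circles for 3xGrk−/−, and bars are ± SE of 1 edgeR fit of 8 libraries. *Itgb7* is the gene whose circles lie far apart on both sides of 0, at −2.05 and 0.64, and *Itgae* is not drawn because of its low counts after LPS.

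Whether the genotypes responded differently was tested by the interaction of genotype and LPS, the response in 3xGrk−/− minus that in WT cells on the log2 scale. Of the 10 members, 6 had a higher response in 3xGrk−/− cells (16.5% of all genes) and 2 a lower one (16% of all genes). Differences over 2 were found for *Itgb7* (2.69, SE 0.141, adjusted p = 8.07e-15) and *Itgax* (2.15, SE 0.0770, adjusted p = 2.00e-18), which 2.16% and 3.84% of all genes matched or passed in size. *Itgae* also passed (adjusted p = 0.000222), with a size that its low counts do not fix. Smaller positive values were those of *Itgam* (0.55, SE 0.0898, adjusted p = 1.96e-05) and *Itgb2* (0.46, SE 0.0681, adjusted p = 3.74e-06). *Itgb1* had a negative value of −0.81 (SE 0.0636, adjusted p = 4.55e-11), with the rise in WT and the uncalled change in 3xGrk−/− cells described above. These calls rest on the spread between 2 libraries per group. With a preset biological coefficient of variation of 0.4 in edgeR's likelihood ratio test, 0 members passed for the interaction after adjustment and 3 at an unadjusted p under 0.05 (4.47% of all genes). At that p, 4 passed between unstimulated genotypes (8.78% of all genes), 4 with LPS (12.6%), 5 in the WT response (17%) and 3 in the 3xGrk−/− response (14.6%).

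The values of *Itgal* (0.23, SE 0.0822, adjusted p = 0.0335) and *Itgb5* (−0.65, SE 0.198, adjusted p = 0.0120) were the least firm of the called ones. In DESeq2 neither passed, at adjusted p = 0.166 and 0.0988. Leaving out replicate 2 of either unstimulated WT, unstimulated 3xGrk−/− or replicate 1 of LPS-stimulated 3xGrk−/− cells took *Itgb5* to adjusted p = 0.118, 0.0529 and 0.0540, and *Itgal* was lost at 0.0806 to 0.175 without replicate 1 of unstimulated WT, replicate 2 of unstimulated 3xGrk−/− or either LPS-stimulated 3xGrk−/− library. The interaction of *Itgav* did not pass (−0.14, adjusted p = 0.382), nor did that of *Itga4* (−0.12, adjusted p = 0.370), which was −0.26 (adjusted p = 0.00311) without replicate 2 of LPS-stimulated WT.

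Ordered by level over the 4 groups, the members followed 7 different orders. *Itgam* and *Itgb2* had the same one, with unstimulated 3xGrk−/− highest, then LPS-stimulated 3xGrk−/−, unstimulated WT and LPS-stimulated WT, and no neighbours overlapped. *Itgax* differed from them in that unstimulated WT lay above LPS-stimulated 3xGrk−/− cells. *Itgal* was ordered unstimulated WT, LPS-stimulated WT, LPS-stimulated 3xGrk−/− and unstimulated 3xGrk−/−, over a narrow range of 1.95-fold, where *Itgax* spanned 16.4-fold. *Itgae* ran from unstimulated WT down to LPS-stimulated WT, with unstimulated above LPS-stimulated 3xGrk−/− cells in between. *Itga4*, *Itgb1* and *Itgav* were all highest in LPS-stimulated WT and lowest in unstimulated WT cells, and for *Itga4* and *Itgav* the genotypes overlapped within each stimulation. The level of *Itgb7* in LPS-stimulated 3xGrk−/− overlapped with that in unstimulated WT cells, above unstimulated 3xGrk−/− and LPS-stimulated WT cells. *Itgb5* was highest in unstimulated and next in LPS-stimulated 3xGrk−/− cells, and its WT groups overlapped.

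To compare α chains that share a partner, CPM were divided by exon length, and each gene was expressed as a share of the sum of the partners, which is a share of transcripts and not of dimers on the cell. For *Itgam* the length matters. A predicted readthrough gene, *Gm49368*, covers most of its exons on the same strand, so that 31.3% of the *Itgam* exon bases (1574 of 5024) belong to no other gene in GENCODE M21, while the other members have 100%. *Gm49368* had at most 6 counts in a library, and whether reads on the shared exons were left out of the *Itgam* counts was not tested. Shares are therefore given with all exon bases and, added after the data were seen, with the exon bases of one gene only.

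Among the α partners of β2, *Itgax* made up 76.2 and 75.9% in unstimulated WT and 69.8 and 69.6% in unstimulated 3xGrk−/− libraries. After LPS it fell to 23.4 and 25.3% in WT and to 52.9 and 53.3% in 3xGrk−/− libraries. *Itgal* became the leading α transcript of LPS-stimulated WT cells, with 59.1 and 59.2%, but held 15.2 and 15.3% in LPS-stimulated 3xGrk−/− libraries. The share of *Itgam* was 9.39 and 9.99% in unstimulated WT, 22.8 and 23.1% in unstimulated 3xGrk−/−, 17.5 and 15.4% in LPS-stimulated WT and 30.8 and 29.8% in LPS-stimulated 3xGrk−/− libraries. With the exon bases of one gene only, the mean share of *Itgam* was higher in every group, at 25.5, 48.7, 38.6 and 58.1% in the same order. It then was the largest share in unstimulated 3xGrk−/− cells, where *Itgax* had 46.3%, and in LPS-stimulated 3xGrk−/− cells, where *Itgax* had 31.9%. *Itgal* led in LPS-stimulated WT cells with either length, at a mean of 59.2 or 43.5%.

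**Figure D4:**
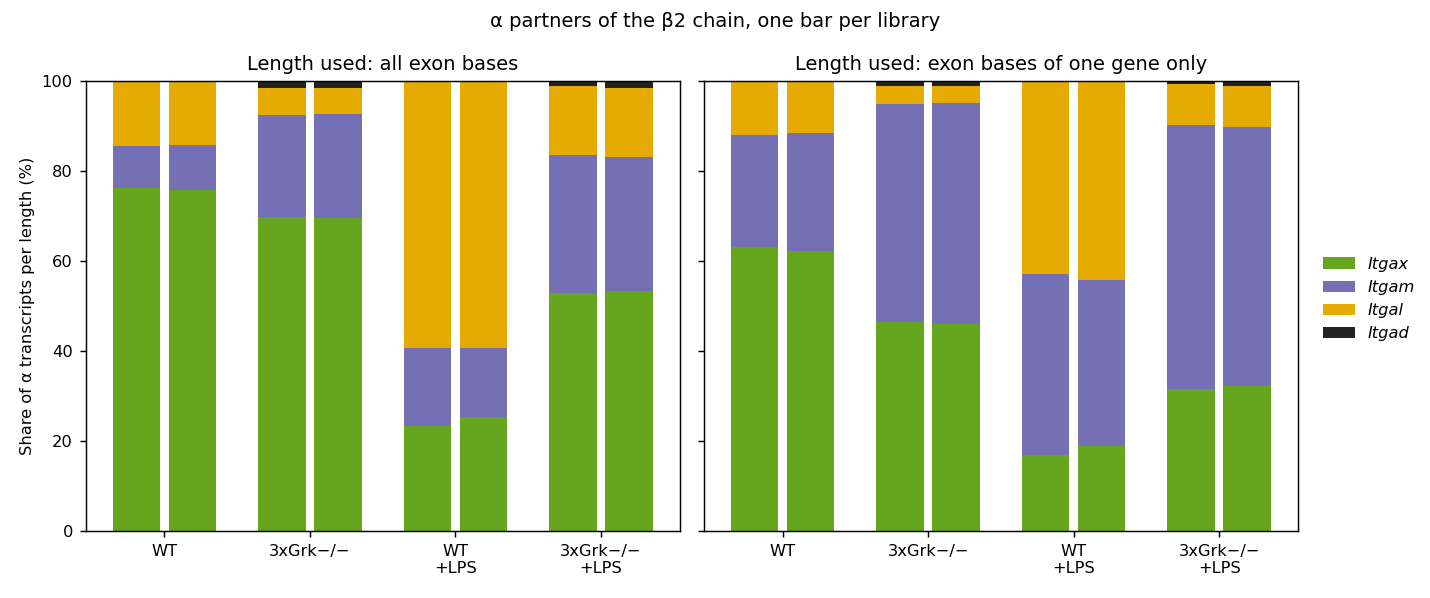
Each bar is 1 library, and its colours give the share (%, y axis) of the 4 α partner genes of β2 in their summed CPM per exon length, with all exon bases on the left and the exon bases of one gene only on the right. *Itgal* takes 59.1 and 59.2% of the 2 LPS-stimulated WT bars on the left and is a minor part of the 3xGrk−/− bars, and *Itgam* grows on the right.

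The β2 gene was expressed at 0.648 and 0.655 times the sum of its α partners per length in unstimulated WT and at 1.28 and 1.27 times in unstimulated 3xGrk−/− libraries. After LPS the ratios were 1.42 and 1.45 in WT and 2.12 and 2.01 in 3xGrk−/− libraries. In both conditions the 3xGrk−/− libraries lay above the WT ones, also with the exon bases of one gene only (0.537 and 0.537 against 0.850 and 0.840 without, 1.03 and 1.08 against 1.27 and 1.22 with LPS). Per length of all exon bases, *Itgb2* in unstimulated 3xGrk−/− cells had the highest mean level of any member in any group, at 412.3 CPM per kb. Of the others by that length, *Itgb1* in LPS-stimulated WT cells had 311.3 and *Itgax* in unstimulated 3xGrk−/− cells 226.1 CPM per kb. *Itgae* in LPS-stimulated WT cells stood at the lower end with 0.0501 CPM per kb. The level of *Itgam* per exon base of one gene only was not ranked.

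*Itgb7* made up 13.2 and 13.4% of the β partners of α4 in unstimulated WT and 8.69 and 7.53% in unstimulated 3xGrk−/− libraries. After LPS it dropped to 2.04 and 1.95% in WT, and was 12.3 and 11.1% in 3xGrk−/− libraries. *Itgae* held 32.1 and 31.1% of the α partners of β7 in unstimulated WT and 14.6 and 10.5% in unstimulated 3xGrk−/− libraries, with *Itga4* as the rest. After LPS, its mean share was 0.188% in WT and 1.02% in 3xGrk−/− cells. Of the β partners of αV, *Itgb1* made up a mean of 93.9 to 97.6% in each group. *Itgb5* had 2.37% in unstimulated WT, 5.57% in unstimulated 3xGrk−/−, 1.38% in LPS-stimulated WT and 3.59% in LPS-stimulated 3xGrk−/− cells, and *Itgb8* went from 0.0575 and 0.118% without LPS to 0.901 and 2.26% with it in WT and 3xGrk−/− cells.

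The remaining integrin subunits were examined as a list of 17 genes, of which 10 passed the filter without LPS. There, 5 were higher and 3 lower in 3xGrk−/− cells, where 22.1% and 22.7% of all genes were, with a median of 0.852 on the log2 scale. With LPS, 4 of 9 were higher and 2 lower (24.7% and 24% of all genes), and the median was 0.295. *Itgad*, the last neighbour in the chromosome 7 group, had the highest difference. It had 3 and 4 counts in unstimulated WT and 153 and 128 counts in unstimulated 3xGrk−/− libraries, a scaled ratio of 40.0 (95% exact counting interval 19.2 to 100.4), and 1 and 0 counts against 36 and 58 counts after LPS, a ratio of 97.3 (17.0 to 3883). All 3 neighbours were thus higher in 3xGrk−/− cells, but the amounts were unequal, and *Itgad* contributed at most 1.55% to the α partners of β2 as a group mean.

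At the other end, *Itga2b*, the αIIb chain of megakaryocytes, platelets and their precursors, had 23.37 and 26.21 CPM in WT against 7.227 and 6.076 CPM in 3xGrk−/− libraries before LPS (log2 difference −1.90, SE 0.169, adjusted p = 3.98e-28). After LPS the difference was −2.61 (SE 0.224, adjusted p = 3.20e-09). *Pf4*, a platelet chemokine also made by macrophages, was higher in 3xGrk−/− cells (5.03 without LPS, SE 0.0901, and 4.46 with it, SE 0.134), as was the platelet gene *Ppbp* (2.59, SE 0.118, and 2.22, SE 0.473). The haemoglobin gene *Hbb-bt* was higher in 3xGrk−/− cells without LPS (1.31, SE 0.252, adjusted p = 1.04e-06) and lower with it (−1.58, SE 0.216, adjusted p = 2.93e-06), while *Hba-a1* and *Hba-a2* had 0 counts in all libraries. *Itgb8* had the highest LPS response of the list in both genotypes, at 4.79 in WT (SE 0.274, adjusted p = 6.67e-15) and 4.34 in 3xGrk−/− cells (SE 0.207, adjusted p = 1.26e-16). *Itga5*, the α chain of the fibronectin receptor, was higher in 3xGrk−/− cells without LPS (0.94, SE 0.0556, adjusted p = 8.65e-62) and with it (0.39, SE 0.0585, adjusted p = 1.13e-05). The interaction was past the threshold for *Itga5* (−0.55, adjusted p = 2.41e-06) and *Itgb2l* (−1.68, adjusted p = 7.90e-06) of the 10 tested, both negative, against 16% of all genes with a negative and 16.5% with a positive interaction past it.

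Of the 22 ligand genes on the list, 14 passed the filter. Without LPS, 6 were higher and 5 lower in 3xGrk−/− cells (22.1% and 22.7% of all genes), with a median of 0.122, and with LPS 9 were higher and 3 lower (24.7% and 24% of all genes), with a median of 0.876. *Fn1*, which encodes fibronectin, a ligand of α4β1 and αVβ1, had 47.87 and 44.24 CPM in WT against 1777 and 1757 CPM in 3xGrk−/− libraries before LPS, a log2 difference of 5.26 (SE 0.0470). *Spp1*, which encodes osteopontin, led after LPS, with 20.70 and 17.13 CPM in WT and 666.4 and 650.2 CPM in 3xGrk−/− libraries (5.11, SE 0.0859, adjusted p = 9.03e-21). *Cdh1*, the gene of E-cadherin, which αEβ7 binds, was the lowest without LPS. It had 167.6 and 162.5 CPM in WT and 42.31 and 42.19 CPM in 3xGrk−/− libraries (−1.97, SE 0.0700, adjusted p = 4.63e-169), so that without LPS both chains of the receptor and its ligand were lower in 3xGrk−/− cells. With LPS, *Cdh1* was still lower (−1.16, SE 0.162, adjusted p = 4.23e-06), while *Itgb7* was higher (2.02) and *Itgae* had the few counts given above. *Nrros*, which holds latent TGF-β at the cell surface, was the lowest ligand list gene with LPS (−1.30, SE 0.0653, adjusted p = 4.61e-13). *Icam1*, a ligand of LFA-1, had 788.7 and 815.3 CPM in LPS-stimulated WT and 459.2 and 465.6 CPM in LPS-stimulated 3xGrk−/− libraries (−0.81, SE 0.0569, adjusted p = 1.43e-10), and the unstimulated groups did not pass the test (0.01, adjusted p = 0.858).

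**Figure D5:**
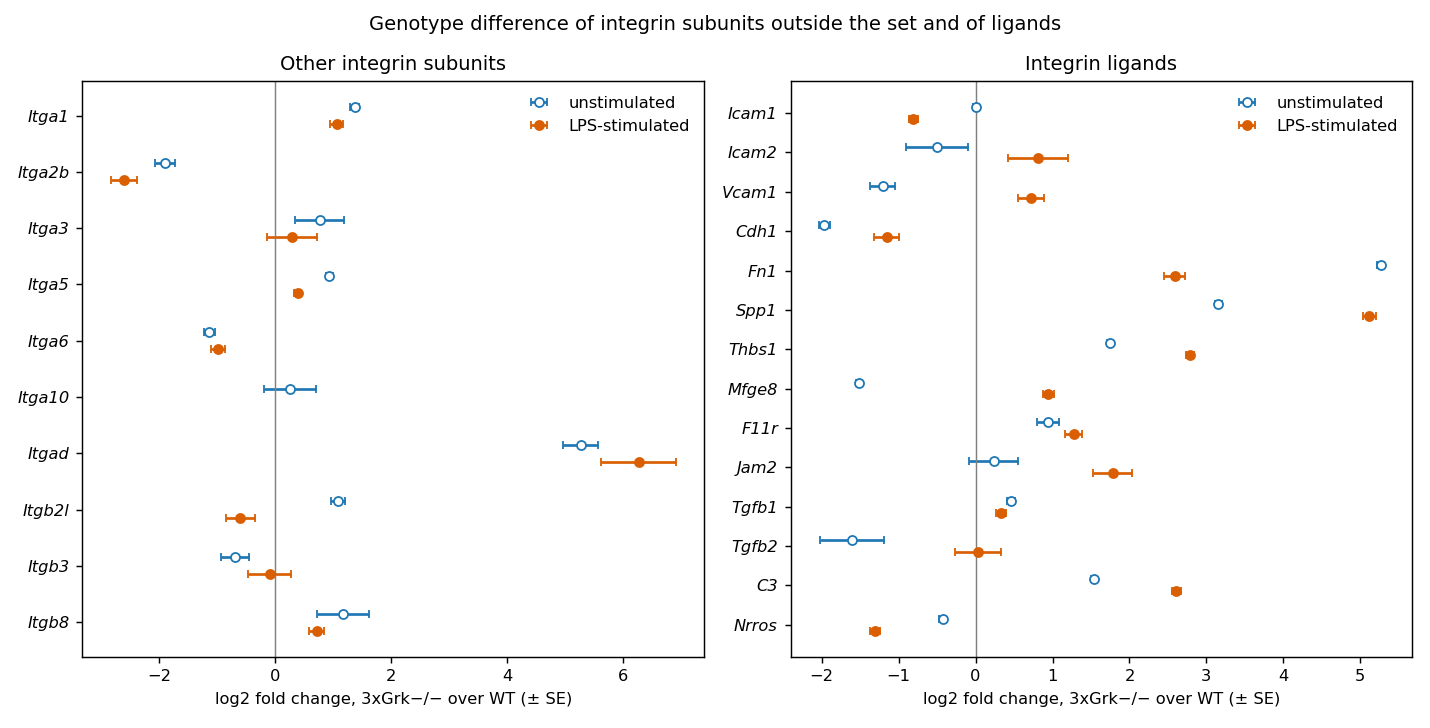
The x axes give the log2 fold change of 3xGrk−/− over WT for subunits outside the set (left) and ligands (right) that passed the filter, open blue circles without and filled orange circles with LPS, and bars are ± SE of edgeR fits of 2 against 2 libraries. *Itgad*, *Fn1* and *Spp1* lie farthest to the right and *Itga2b* and *Cdh1* to the left.

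Genes that switch integrins on, signal from them or hold them back made up 3 further lists, whose counts stand beside 22.1% higher and 22.7% lower of all genes without LPS and 24.7% and 24% with it. Of 17 tested activators and adaptors, 6 were higher and 3 lower in unstimulated 3xGrk−/− cells (median 0.037), and with LPS 5 of 18 were higher and 9 lower (median −0.168). *Parvb*, an adaptor of the integrin-linked kinase complex, had the highest difference in both conditions (1.08, SE 0.148, and 2.93, SE 0.272), and *Rasgrp2*, an exchange factor for Rap1, the lowest (−0.93, SE 0.313, and −1.93, SE 0.479). Of the 9 restraining genes, 4 were higher and 1 lower without LPS, and 2 higher and 3 lower with it. *Rasa3*, a GTPase-activating protein for Rap1, had the highest difference in both conditions (0.34, SE 0.0936, and 0.74, SE 0.113), and the adaptor gene *Dok2* the lowest without LPS (−0.50, SE 0.0576). *Flna*, filamin A, which competes with talin for β tails, was the lowest of them after LPS (−1.09, SE 0.0496, adjusted p = 9.94e-14). Of the 8 kinases, 4 were higher and 3 lower without LPS and 5 higher and 3 lower with it. *Src* had the highest values (1.11, SE 0.0981, and 1.66, SE 0.0983), and *Ptk2*, focal adhesion kinase, the lowest without LPS (−0.89, SE 0.122), with *Fyn* the lowest after LPS (−0.62, SE 0.0684).

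Markers of other cells moved with the genotype as well, and the counts of called markers here stand beside the same shares of all genes, 22.1% higher and 22.7% lower without LPS and 24.7% and 24% with it. The summed level of 12 macrophage markers was 1108 and 1098 CPM in WT without LPS, 2346 and 2296 CPM in unstimulated 3xGrk−/−, 449.1 and 456.2 CPM in LPS-stimulated WT and 5700 and 5762 CPM in LPS-stimulated 3xGrk−/− libraries. With LPS, 12 of 12 were higher in 3xGrk−/− cells, and without it 7 were higher and 4 lower. The sum of 10 dendritic cell markers was 24940 and 25470 CPM in WT against 12600 and 12260 CPM in 3xGrk−/− libraries without LPS, with 8 of 10 lower and 2 higher. The 2 higher ones were *Flt3* (log2 difference 0.95) and *Ccr7* (0.24). *Cd74*, among the 8 lower ones (−0.90), had the highest mean level of the list and weighs most on the sum. After LPS the sums were 16400 and 17880 CPM in WT against 14180 and 13860 CPM in 3xGrk−/− libraries, with 9 of 10 lower and *Flt3* higher. Beside these lists, the members went both ways. Without LPS, *Itgax*, *Itgam*, *Itgb2*, *Itgb1* and *Itgb5* were higher and *Itgal*, *Itgae* and *Itgb7* lower in 3xGrk−/− cells, and with LPS *Itgax*, *Itgam*, *Itgb2*, *Itgb7* and *Itgb5* were higher and *Itgal* and *Itgb1* lower. The part of these cells in the integrin differences was not tested.

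The 9 eosinophil markers summed to 1272 and 1362 CPM in unstimulated and 1157 and 1255 CPM in LPS-stimulated WT, against 75.3 and 67.4 and 89.5 and 82.9 CPM in 3xGrk−/− libraries. None was higher in 3xGrk−/− cells, and 8 were lower without (22.7% of all genes) and 9 with LPS (24% of all genes). For the 12 neutrophil markers the sums were 890 and 854 CPM in WT against 1296 and 1320 CPM in 3xGrk−/− libraries without LPS, and 377.2 and 431.0 against 576.2 and 601.9 CPM with LPS. Most single markers did not follow these sums. Without LPS 1 was higher, *Mmp8*, and 7 were lower (22.1% and 22.7% of all genes). With LPS 2 were higher, again with *Mmp8*, and 7 lower of 11 tested (24.7% and 24% of all genes). *Mmp8*, which weighs on the sums, differed by 2.84 without LPS (SE 0.046) and 3.85 with it (SE 0.0797) on the log2 scale. The medians of the list were −0.542 and −0.797. The 6 stromal markers summed to 1.52 to 2.82 CPM without LPS, to 22.9 and 13.3 CPM in LPS-stimulated WT and to 148.4 and 137.4 CPM in LPS-stimulated 3xGrk−/− libraries, where *Dcn* alone had 127.1 and 112.8 CPM, with 0 counts in the unstimulated groups. With LPS, 4 of the 6 were higher in 3xGrk−/− cells and 1 was lower (24.7% and 24% of all genes). The lower one was *Lum* (log2 difference −0.62, SE 0.240, adjusted p = 0.0370). The 10 mast cell and basophil markers ranged from 82.8 to 104.5 CPM without LPS, and from 144.7 and 157.4 CPM in WT to 337.6 and 348.9 CPM in 3xGrk−/− libraries with it. Of the 7 tested between genotypes with LPS, 1 was higher in 3xGrk−/− cells, *Hdc*, which makes histamine (log2 difference 2.20, SE 0.0741, adjusted p = 5.80e-16), and 3 were lower, with a median of −0.27, where 24.7% and 24% of all genes were higher and lower. Without LPS, 2 of 7 were higher and 3 lower (22.1% and 22.7% of all genes). The 9 erythroid and megakaryocyte markers ranged from 21.2 to 22.8 CPM in WT and from 127.1 to 341.3 CPM in 3xGrk−/− libraries, mostly *Pf4*. The 10 lymphocyte markers stayed between 2.59 and 7.61 CPM, with 4 to 6 of them at 0 in each group, among them *Cd3e* in 3 groups and *Trbc2* in 3 groups. The part of these cells in the integrin values was not tested either.

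The genes with the most similar profiles were sought over the 8 libraries among 9388 genes with a mean log2 CPM of at least 3, by the root mean square (RMS) difference of centred log2 CPM. *Itgam* was nearest to *Clec7a* (0.0599), *Vat1* (0.0898) and *Cd93* (0.108), and *Itgb2* to *Creg1* (0.0874), *Dtx4* (0.0968) and *Slc2a1* (0.101). *Itgax* had more distant neighbours, with *Tifab* at 0.234, *Spib* at 0.241 and *Mrc1* at 0.271, and so did *Itgae*, with *Ccnd1* at 0.314, *Amz1* at 0.339 and *Clec4b1* at 0.351. *Itgb7* was nearest to *Hcar2* (0.240), *Ndrg4* (0.260) and *Pld4* (0.270), and *Itgb5* to *Ifi27* (0.133), *Apol7c* (0.157) and *Iqsec1* (0.164). The nearest genes of *Itga4* were *Vps54* (0.0443), *Stx8* (0.0583) and *Wipf1* (0.0825), those of *Itgb1* were *Mob3a* (0.0485), *Sptan1* (0.0492) and *Orai1* (0.0570), and those of *Itgav* were *Net1* (0.0691), *Dnajb6* (0.0813) and *Plekha1* (0.0841). No member had another member among its nearest genes, and genes with a narrow range of levels have small distances by construction. The libraries are shared between all of these profiles.

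*Itgae* and *Itga4* overlap genes on the opposite strand, *Haspin* with at most 112 and *Cerkl* with at most 28 counts in a library. The libraries were made with a stranded protocol, and the strand setting of the counting is not given in the sources used here, so that some reads of these pairs may be shared.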

How the data were processed

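RNA of 8 BMDC libraries was analysed, 2 for each genotype and stimulation, grouped by the sample labels. The authors aligned the reads with STAR to mm10 and counted them with featureCounts, and the deposited values are raw counts per gene without normalization. They came in 2 tables, separate for unstimulated and LPS-stimulated libraries. LPS responses and the interaction therefore compare libraries across the 2 tables, and whether these were processed apart is not given in the sources used here. The annotation release is not given in the sources used here. Names, lengths and positions came from GENCODE M21 on GRCm38, which matched 47310 of 47937 IDs without their version (0.0468% of counts unmatched), and promoters came from a RefSeq table for GRCm38.p6, which held 7 members. Protein sequences were not used here.

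Genotypes were compared within each stimulation, and LPS responses and the interaction in 1 fit of all 8 libraries, with edgeR 4.0.16 in R 4.3.3 (TMM scaling, filterByExpr, quasi-likelihood test, Benjamini-Hochberg adjustment over all genes tested, threshold 0.05). Differences, levels and shares were computed from these counts. Scripts were tested on simulated data. Nearest profiles used log2(CPM + 1).

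The members and gene lists were chosen with earlier results of these data known. The genes named are the members, the pathway list genes with the highest and lowest called difference between genotypes, some of those in the other comparisons and in the marker lists (the rule covered all of them), the 3 nearest profiles of each member (those of *Itgal* are not reported here), and genes that a result turns on. *Icam1*, *Hba-a1* and *Hba-a2* were named after their values were seen. Alternatives were DESeq2 1.42.0, RLE factors, library size only, other filters, a fixed biological coefficient of variation (BCV) of 0.4, a replicate block, other sets of libraries, each library left out, and other gene lengths.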

Additional observations from a re-analysis of the deposited data

Results flagged for a closer look

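For 8 of the 10 integrin genes, 6 upwards and 2 downwards, the difference between 3xGrk−/− and WT cells with LPS was not the same as that without LPS in edgeR's interaction test with Benjamini-Hochberg adjustment, as it was for 16.5% of all genes upwards and 16% downwards. In DESeq2, 6 members were called, without *Itgal* (adjusted p = 0.166) and *Itgb5* (adjusted p = 0.0988). The genotype difference with LPS minus that without LPS, on the log2 scale, was 2.15 for *Itgax*, 0.55 for *Itgam*, 0.23 for *Itgal*, 0.46 for *Itgb2*, 3.92 for *Itgae*, −0.81 for *Itgb1*, 2.69 for *Itgb7* and −0.65 for *Itgb5*. The value of *Itgae* rests on 0 and 3 counts in the LPS-stimulated WT libraries, so that its size is not fixed by these data, and it ranged from 3.08 to 7.62 when each library was left out in turn. With each library left out in turn, the value of *Itgb7* stayed between 2.61 and 2.79 and that of *Itgax* between 2.07 and 2.23.

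*Itgb7* was the member whose genotype difference was past the threshold in opposite directions without and with LPS, apart from *Itgb1*, which had a small positive difference without LPS and a negative one with it. All other members that were past the threshold in both conditions kept their direction.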

How the results depend on the processing

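Of 646 values of integrin genes under alternatives other than a fixed spread, 615 kept their direction and their side of the threshold, 11 changed sign, and 13 lost and 7 gained a call in the same direction. With library size only, the sign turned for the genotype differences of *Itga4* (−0.0612) and *Itgav* (−0.0365) without LPS, for the LPS responses of *Itgb5* in WT (−0.13) and of *Itgal* (−0.11) and *Itgb1* (−0.16, then past the threshold) in 3xGrk−/− cells. The share of higher genes among those called without LPS went from 49.3 to 35.8%. When each library was left out in turn, *Itga4* ranged from −0.0434 to 0.0981 and *Itgav* from −0.0049 to 0.111 between the genotypes without LPS, from −0.223 to 0.0582 and from −0.173 to 0.0084 with LPS, *Itgb5* from −0.0471 to 0.188 in the WT response, and *Itga4* from −0.259 to 0.0221 in the interaction.

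DESeq2 called 3086 in place of 5369 genes between unstimulated genotypes and 2643 in place of 4070 for the interaction, with 8 and 6 members. Without LPS it called 5 of the 17 activators and adaptors and 3 of the 9 restraining genes, fewer than edgeR. With LPS it called 5 of the 8 kinases, where edgeR called all, and 3934 in place of 5754 genes. A fixed BCV of 0.4, where the libraries gave 0.0306 to 0.0573, left 448 genes and 0 members without LPS, 782 and 3 with LPS, 1110 and 3 in the WT response, 850 and 1 in the 3xGrk−/− response, and 72 and 0 for the interaction. At an unadjusted p under 0.05 of edgeR's likelihood ratio test with that BCV, 4, 4, 5, 3 and 3 members passed in this order, against 8.78%, 12.6%, 17%, 14.6% and 4.47% of all genes tested. By edgeR's quasi-likelihood test on the spread of these libraries, the member counts were 8, 7, 8, 8 and 8. Replicate numbers are shared between groups, but the deviations of same-numbered libraries correlated at −0.132 to 0.201 and the labels name nothing that they share. A replicate block gave 5292, 5654, 7438, 6793 and 3884 genes over the 5 comparisons, and 8, 7, 8, 8 and 7 members, where the interaction of *Itgal* was lost (0.23, adjusted p = 0.0515), as it was without the filter on low counts (0.24, adjusted p = 0.0539). Depth limits *Itgae* and *Itgad*, which had 3 counts or fewer in single WT libraries.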
